A study of Mus musculus with 18 samples.

Results

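The cells described here are OT1 thymocytes that carried neither CD4 nor CD8A on their surface, compared between a mouse whose thymus held the antigen and a mouse in which the receptor had no ligand on host cells. They were chosen by 2 antibody values: a cell was taken as double-negative when its value v was at most 6.3 for CD4 and at most 6.1 for CD8A. Here v is log2(1 + UMIs), with each cell's antibody UMIs first scaled to the median antibody total, and a UMI is 1 counted molecule. This rule gave 363 of the 1331 cells of the series, 140 from the OT1 NegSelected mouse and 223 from the OT1 NoSelection mouse. Both mice were bone marrow chimeras with 30% OT1 marrow (CD45.1.2, B6 strain) and 70% CD45.1 competitor marrow, female, 14 weeks old and 6 weeks after transplantation. The NegSelected host was RIPmOVA (CD45.2), a C57BL/6 line with the transgene Ins2-TFRC/OVA, in which an insulin promoter drives a membrane form of ovalbumin, the OT1 antigen. The NoSelection host was a b2m KO on B6.Ly5.1/Ncr (labelled CD45.1), and donor-derived blood cells in it kept B2m. The OT1 PosSelected mouse, a C57BL6/Ncr wt host with the same marrow, gave 83 double-negatives and is set beside them. The OT2 mice, also 14 weeks old and 6 weeks after transplantation, serve as a side view near the end. Their hosts were RIPmOVA (NegSelected), wild type (PosSelected) and a NoSelection host whose labels conflict. Thymi were dissociated mechanically and sorted as CD44lo CD45.1.2+ Va2+ Vb5+ cells, and all mice shared 1 lane of droplets, told apart by hashtags. There was 1 mouse per host, so no difference below has a replicate check, and each interval covers counting error only.

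OT1 is a transgenic receptor that sees an ovalbumin peptide on MHC class I. In mice with a transgenic alpha and beta chain, the receptor reaches the surface earlier than usual, and some thymocytes stay double-negative and take on features of gamma delta T cells. A strong signal in the thymus induces the Nr4a and Egr families, CD5, Helios (encoded by Ikzf2) and PD-1, and it can end in deletion or in diversion to precursors of intestinal lymphocytes.

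The members were thus set by short tags read along with the RNA. The tags of the hashtags that name the 2 mice, of the 2 antibodies of the rule and of 3 antibodies whose counts are compared below are printed here as the study designed them, each 15 bases long.
Hashtag HT5 (NegSelected): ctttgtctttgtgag
Hashtag HT7 (NoSelection): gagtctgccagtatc
CD4: aacaagacccttgag
CD8A: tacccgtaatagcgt
CD5: cagctcagtgtgttg
KIT: tgcatgtcatcggtg
GITR: ggcactctgtaacat

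Double-negatives made up 68.6% (61.8 to 74.9, exact Clopper-Pearson 95% interval) of the 204 NegSelected cells and 72.9% (67.5 to 77.8) of the 306 NoSelection cells, and the 2 intervals overlapped. In the PosSelected mouse the share was 29.4% (24.2 to 35.1) of 282 cells. The antibodies that chose the cells set these shares, so they are a description. Few cells lay near the limits. For CD4, 5 cells of the 2 mice were inside within 0.5 and 3 were outside, and the nearest values were 6.23 and 6.51. For CD8A, 10 cells were inside and 18 outside, and the nearest values were 6.097 and 6.14.

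The RNA of the members matched a cell without coreceptors that carries the transgenic beta chain. Cd4 RNA stood at 2.06 CPM (summed UMIs of a gene per 1000000 RNA UMIs) in NegSelected and 3.65 in NoSelection double-negatives, against 88.8 and 78.6 in the other OT1 cells of the same mice. Cd8a stood at 15.4 and 21.1 CPM in double-negatives and at 224 and 461 in the other cells. A UMI of Cd4, Cd8a or Cd8b1 was found in 14 of 140 NegSelected double-negatives (10.0%) and in 18 of 223 NoSelection double-negatives (8.07%), with median depths of 5764 and 4742 RNA UMIs per cell. In the other cells the share was 67.2% and 85.5%. Trbv12-1, a Vbeta5 segment, was read in 135 of 140 and 219 of 223 double-negatives, at 2843 and 2732 CPM. Trac, the alpha constant gene, was low at 94.6 and 86.1 CPM in double-negatives, against 408 and 258 in the other cells.

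Gamma delta receptor genes were a common feature of the double-negatives in both hosts. Trdc, the delta constant gene, stood at 987 CPM in NegSelected and 1030 in NoSelection double-negatives, and at 306 and 369 in the other OT1 cells. Trgc1, a gamma constant gene, stood at 725 and 695 CPM, against 6.58 and 56.4 in the other cells. The ratio of NegSelected to NoSelection double-negatives was 0.96 (0.88 to 1.04) for Trdc and 1.04 (0.94 to 1.15) for Trgc1. Every such ratio is of the CPM values, with an exact conditional binomial 95% interval. On the surface, the TCRGD antibody had a median v of 3.92 and 3.77 in double-negatives and 4.08 and 3.88 in the other cells, higher in the other cells of each mouse. The TCRB antibody had 4.28 and 4.30.

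The median double-negative was deeper in NegSelected, at 5764 RNA UMIs against 4742. The NegSelected double-negatives held 972818 RNA UMIs and 650268 antibody UMIs, and the NoSelection double-negatives held 1371243 and 957560. No cell barcode occurred more than once among the 1331 cells.

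Several defining markers of other cell types had no UMI in either mouse, while a few listed genes were abundant in both. Of the 10 myeloid genes, Csf1r, Itgax, Mpeg1, Cd209a and Mpo had no UMI; of the 7 B cell genes, Cd79a and Ms4a1 had none; and Hbb-bs, Hba-a1, Hba-a2, Krt5, Krt8, Psmb11, Cldn4 and Aire had none. The summed level of the myeloid list was 152 CPM in NegSelected and 143 in NoSelection double-negatives, almost all from Cst3 (138 and 136 CPM), and that of the B cell list 373 and 391, mostly from Ighm (328 and 352 CPM) with Cd79b at 43.2 and 35.0 CPM. The NK and ILC list summed to 206 and 225 CPM, almost all from Gata3, which T cells share. The thymic epithelium list, with a UMI for 2 of its 7 genes, summed to 35.0 and 55.4 CPM, a ratio of 0.63 (0.41 to 0.96). The erythroid list, with a UMI for 2 of its 6 genes, summed to 1.03 and 4.38 CPM.

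Most RNA levels of the double-negatives lay close to equal between the antigen host and the b2m KO host. Of the genes with a UMI, 6353 reached 50 UMIs over both mice and were counted. A ratio of at least 2 was found for 28 of them, 0.441%, and a ratio of at most 0.5 for 39, 0.614%. The median log2 ratio over counted genes was -0.04. An interval wholly beyond 2-fold was found for 3 higher and 2 lower genes. The counts depended on the minimum: with 20 UMIs required, 116 genes were past 2-fold higher and 205 lower, and with 100 UMIs 5 and 3. The scatter of levels shows most genes close to the line of equal level.

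**Figure D1:**
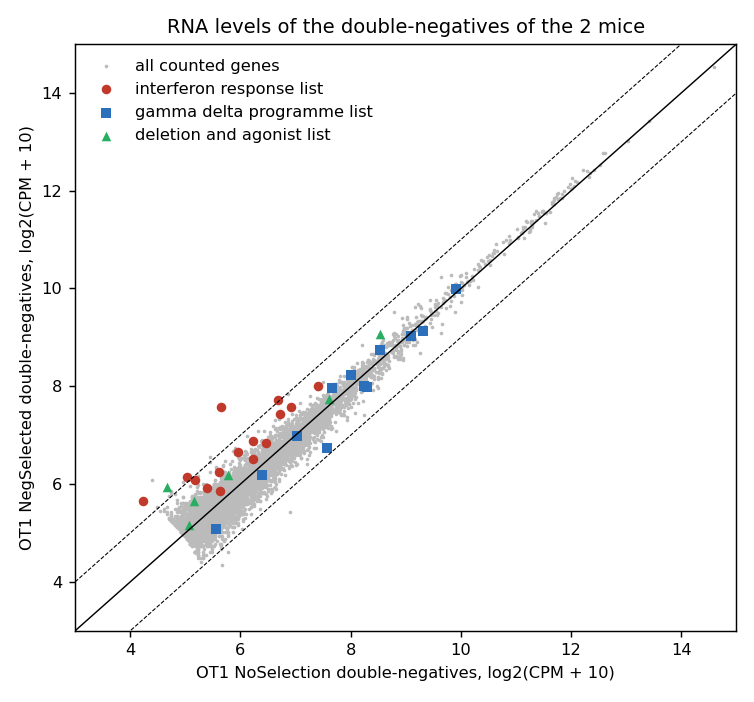
RNA levels of 6353 counted genes in the double-negatives of the OT1 NoSelection mouse (x axis) and the OT1 NegSelected mouse (y axis), both as log2(CPM + 10). The solid line marks equal level and the dashed lines 2-fold; the interferon response genes lie above the solid line, and Maf is the gamma delta programme gene that lies lowest below it.

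Among counted genes the largest ratio was that of Mcub, which encodes a subunit that restrains the mitochondrial calcium uniporter. It had 56 UMIs (57.6 CPM) in NegSelected and 15 UMIs (10.9 CPM) in NoSelection double-negatives, a ratio of 5.26 (2.94 to 10.0), and its UMIs lay in 36 and 11 cells with at most 6 in any. In the PosSelected double-negatives it stood at 19.4 CPM, and in the other OT1 cells at 9.87 and 10.1. Without cells that held 3 or more UMIs of the cell cycle list, the ratio was 14.4. Map7, a microtubule-associated protein gene, had 55.5 and 21.1 CPM, a ratio of 2.62 (1.64 to 4.28). Mtif2, a mitochondrial translation factor gene, had 44.2 and 16.0 CPM, a ratio of 2.76 (1.61 to 4.84). Both were spread thinly, with at most 4 UMIs of Map7 and 3 of Mtif2 in a cell.

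Some other high ratios rested on few cells. The histone genes H2bc11 (ratio 2.88) and H2bc18 (2.33) belong to dividing cells. Without cells of the cell cycle list as above, the ratio of H2bc11 was 0.42 and that of H2bc18 was 0.95. The transcript Gm17590 had 46.3 and 16.8 CPM, in 9 cells of each mouse, and its ratio of 2.76 was 1.51 without cells of the cell cycle list.

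At the lower end, Ifitm10, a transmembrane protein gene, had 10 UMIs (10.3 CPM) in NegSelected and 56 UMIs (40.8 CPM) in NoSelection double-negatives, a ratio of 0.25 (0.11 to 0.50), and stood at 24.3 CPM in the PosSelected ones. Fkbp5, a glucocorticoid-induced gene, had 161 and 293 CPM, a ratio of 0.55 (0.45 to 0.66), and 168 in PosSelected double-negatives. Its alternatives ran from 0.54 to 0.59. Kcnq5, a potassium channel gene, had 32.9 and 109 CPM, a ratio of 0.30 (0.20 to 0.44), but 41 of its 150 NoSelection UMIs lay in 1 cell, and its alternatives ran from 0.27 to 0.66. Gm20628 had 14.4 and 44.5 CPM; 32 of its 61 NoSelection UMIs lay in 1 cell, and the ratio of 0.32 became 1.09 with each cell's count capped at the 99th percentile.

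The interferon response list was the group that stood highest in NegSelected double-negatives. Interferons act through STAT factors on genes with antiviral roles, many of which carry an element made of GAAA repeats near the start. Of the 18 genes of the list, 15 were counted; all 15 had a ratio above 1, against 44.9% of counted genes, 5 reached a ratio of 2, and none was at or below 0.5. The median log2 ratio with 10 CPM added was 0.67, against -0.03 over all counted genes. Summed over the list, the level was 1751 CPM in NegSelected, 942 in NoSelection and 945 in PosSelected double-negatives. In the other OT1 cells of the same mice it was 754 CPM in NegSelected and 1038 in NoSelection.

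Promoter windows of these genes are shown because the counted members of the list lay on 1 side and the element can be read in them. Windows from RefSeq (GRCm38.p6, 250 bases before to 50 after each start) were matched for 12 of the 18 genes; Ifi27l2a, Mx1, Rtp4, Usp18 and Zbp1 were among those without one. The motif was GAAA then any 2 bases then GAAA, searched on both strands with overlaps allowed. It was in a window of 7 of the 12 genes and in 3.44% of all 32851 windows. The first share counts genes and the second counts windows, so they are not like measures. Capitals mark the motif or its reverse complement, and each line runs 5′ to 3′ along the gene's strand.
Isg15 (chr4:156200863-156200908, minus strand): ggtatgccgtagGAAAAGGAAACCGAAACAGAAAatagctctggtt
Ifit1 (chr19:34640773-34640825, plus strand): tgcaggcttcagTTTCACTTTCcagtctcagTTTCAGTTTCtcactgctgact
Ifit3 (chr19:34583361-34583428, plus strand): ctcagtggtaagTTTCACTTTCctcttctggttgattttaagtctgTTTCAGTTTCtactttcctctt
Ifit3b (chr19:34607757-34607824, plus strand): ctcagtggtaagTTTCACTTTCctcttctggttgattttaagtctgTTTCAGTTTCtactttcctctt
Bst2 (chr8:71537575-71537614, minus strand): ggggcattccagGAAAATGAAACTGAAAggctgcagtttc
The stretches of Ifit3 and Ifit3b were identical. A match describes the letters only, and 5 of the 12 matched genes had none in these windows.

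Members of the list differed in size of ratio, and those at 2 or above come first. Ifi27l2a, an interferon-induced mitochondrial protein gene, had 177 UMIs (182 CPM) in NegSelected and 55 UMIs (40.1 CPM) in NoSelection double-negatives, a ratio of 4.54 (3.33 to 6.26), with 84.1 CPM in PosSelected ones. Its NegSelected UMIs lay in 32 cells, with at most 31 in a cell, and its alternatives ran from 3.55 to 5.43. Isg15, a ubiquitin-like modifier, had 201 and 92.6 CPM, a ratio of 2.18 (1.73 to 2.74), and 67.9 in PosSelected double-negatives. Ifit3, which binds foreign RNA together with its relatives, had 40.1 and 8.75 CPM, a ratio of 4.58 (2.35 to 9.61) that was 2.57 with each cell's count capped at the 99th percentile. Ifit3b, its near copy, had 33 UMIs and 1 UMI, a ratio of 46.5 (7.79 to 1892) that was 7.73 when capped, and reads of the pair can be split wrongly between them. Isg20, an exonuclease gene, had 60.6 and 22.6 CPM, a ratio of 2.68 (1.71 to 4.29) that was 1.67 when capped, and Ifit1 had 57.6 and 26.3 CPM, a ratio of 2.19 (1.42 to 3.43). In each of these 6 genes the NegSelected level was above both other OT1 mice.

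The other members had smaller ratios. Ifi47, a GTPase gene, had 247 and 160 CPM, a ratio of 1.54 (1.28 to 1.85), and Bst2, a membrane tether of viruses, had 162 and 95.5 CPM, a ratio of 1.70 (1.34 to 2.16). Usp18, which removes ISG15, had a ratio of 1.77 (1.28 to 2.45). Irf7, a factor that raises interferon output, had a ratio of 1.33 (1.00 to 1.76). The intervals of Zbp1 (0.91 to 1.71), Xaf1 (0.81 to 1.85) and Oasl2 (0.68 to 2.94) held 1.

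**Figure D2:**
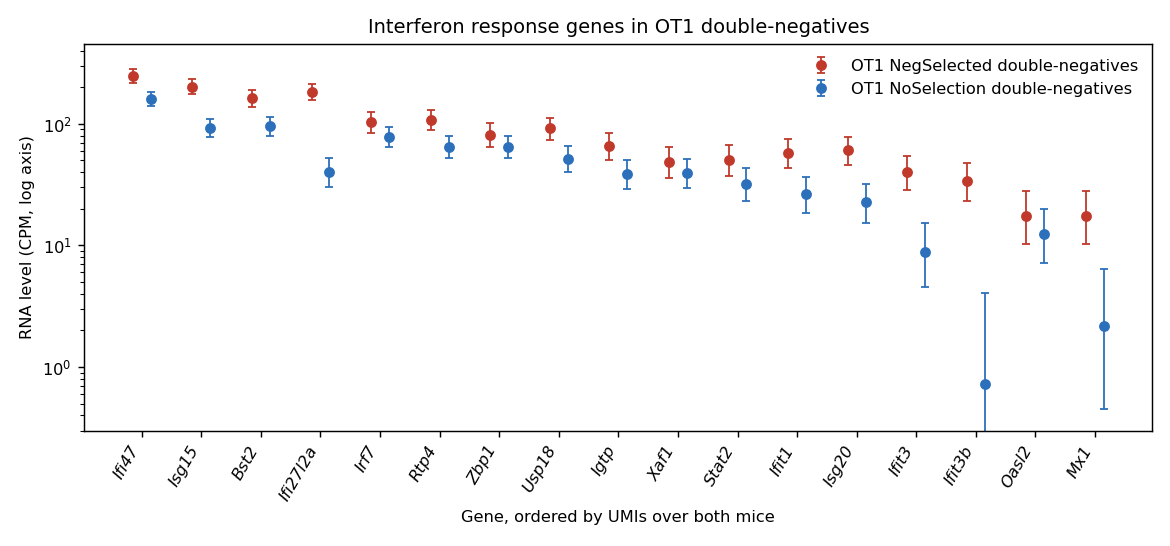
RNA level (CPM, log axis) of the interferon response genes reported here with at least 20 UMIs over both mice, in double-negatives of the OT1 NegSelected (red) and OT1 NoSelection (blue) mouse. Bars are exact Poisson 95% intervals, and the lower bar of Ifit3b runs below the axis; each of the 17 red points lies above its blue one, with the widest gap for Ifit3b.

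A few cells carried much of this difference. The 5 NegSelected double-negatives with most interferon UMIs held 37.2% of the 1703 UMIs of the list, and the 5 such NoSelection cells held 16.2% of 1292. Without these 5 cells of each mouse, an alternative chosen after seeing the data, the list stood at 1145 and 807 CPM and its median log2 ratio was 0.37. Ifi27l2a then had a ratio of 3.04 (2.17 to 4.29) and Isg15 of 1.53 (1.14 to 2.07), while the intervals of Ifit3 (0.51 to 10.4), Ifit1 (0.67 to 2.74) and Usp18 (0.85 to 1.92) held 1. Of the 15 counted genes, all 15 still had a ratio above 1, and 8 intervals held 1, against 2 with all cells. The median double-negative had 791 CPM of the list in NegSelected and 533 in NoSelection, with quartiles of 317 and 1434 against 250 and 1318.

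The deletion and agonist list had a higher summed level in NegSelected double-negatives, with Ikzf2 as its most abundant member. Of the 16 genes of this list, 6 were counted. All 6 had a ratio above 1, against 44.9% of all counted genes, and 1, Nr4a1, reached 2, against 0.441%. However, the intervals of Tnfrsf18, Pdcd1, Nfkbid and Bcl2l11 held 1. The median log2 ratio was 0.46, and 0.22 without the 5 cells of each mouse with most UMIs of the list, again an alternative chosen after seeing the data. The list summed to 1031 CPM in NegSelected, 677 in NoSelection and 702 in PosSelected double-negatives. Those 5 cells held 23.3% of the UMIs of the list in NegSelected and 13.04% in NoSelection, and without them the list stood at 814 and 618 CPM. In the other OT1 cells it stood at 1672 and 792 CPM.

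Ikzf2, which encodes Helios, a factor raised in cells under deletion, had the most UMIs of the list. It had 514 UMIs (528 CPM) in NegSelected and 492 UMIs (359 CPM) in NoSelection double-negatives, a ratio of 1.47 (1.30 to 1.67), and 429 CPM in PosSelected ones. Its UMIs were spread over 117 and 165 cells, and its alternatives ran from 1.41 to 1.89. Tnfrsf18, which encodes the receptor GITR, had 62.7 and 44.5 CPM, a ratio of 1.41 (0.97 to 2.04). Pdcd1, which encodes PD-1, had 205 and 184 CPM, a ratio of 1.11 (0.92 to 1.35). Bcl2l11, which encodes the death protein BIM, had 25.7 and 23.3 CPM, a ratio of 1.10 (0.63 to 1.92), so that the difference was within counting error.

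Some inducible members had their UMIs in few cells. Nr4a1, an immediate target of receptor signals, had 50 UMIs (51.4 CPM) and 21 UMIs (15.3 CPM), a ratio of 3.36 (1.98 to 5.88), but 35 and 18 of them lay in 1 cell of each mouse. Gadd45b, a stress gene of the NF-kB pathway, had 25 and 8 UMIs in 5 NegSelected and 8 NoSelection cells. Its ratio was 4.40 (1.93 to 11.3), and 0.87 with capped counts. Tnfrsf9, which encodes the costimulatory receptor 4-1BB, had 17 and 2 UMIs, a ratio of 11.98 (2.84 to 107), in 7 and 2 cells, with alternatives from 4.90 to 21.5. The chemokine gene Xcl1 had 19 UMIs in NegSelected, 18 of them in 1 cell, and none in NoSelection double-negatives, where the floor of 3 counts is 2.19 CPM; against that floor it was at least 8.93-fold higher, and the exact interval of the ratio began at 6.58. Cd83, an activation marker gene, had 20 UMIs, 16 of them in 1 cell, and none in NoSelection, at least 9.40-fold higher against the same floor, with an interval from 6.96.

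**Figure D3:**
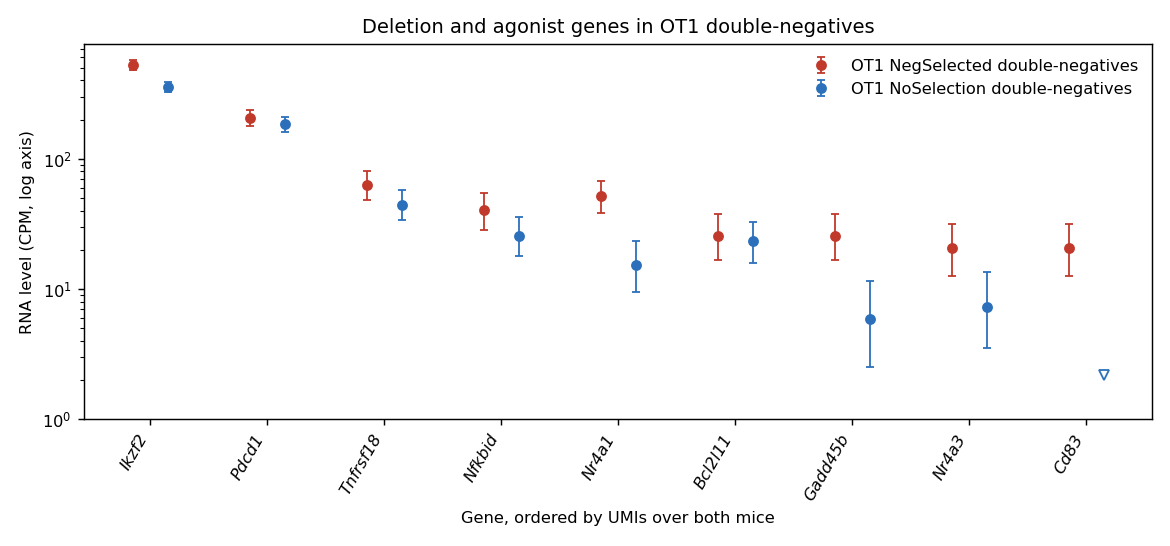
RNA level (CPM, log axis) of the deletion and agonist genes with at least 20 UMIs over both mice, in double-negatives of the OT1 NegSelected (red) and OT1 NoSelection (blue) mouse, with exact Poisson 95% intervals. The open triangle marks the floor of 3 counts for Cd83, which had 0 counts (2.19 CPM); the bars of Ikzf2 do not overlap, while those of Pdcd1 and Bcl2l11 do.

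Other early targets of the receptor lay on both sides of equal. Of 18 TCR-induced early genes 10 were counted, 7 with a ratio above 1, against 44.9% of all counted genes. Their median log2 ratio was 0.17. Egr1 had 77.1 and 75.1 CPM, a ratio of 1.03 (0.75 to 1.40), and Cd69 95.6 and 83.9 CPM, a ratio of 1.14 (0.86 to 1.51). Cd5 RNA, the marker of receptor signal strength, had 115 and 97.0 CPM, a ratio of 1.19 (0.91 to 1.54). Dusp2, a phosphatase gene, was lower at 131 and 171 CPM, a ratio of 0.76 (0.61 to 0.95), and Fos, a part of the AP-1 factor, had 11 and 36 UMIs, a ratio of 0.43 (0.20 to 0.86) with alternatives up to 0.68. In the other OT1 cells Cd5 stood at 747 and 463 CPM and Egr1 at 296 and 294, well above the double-negatives.

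The gamma delta programme stood at like levels in both hosts, apart from Maf. Of 20 listed genes 12 were counted, 4 with a ratio above 1 and 8 below, and none was past 2-fold. For all counted genes the shares were 44.9% above 1, 0.441% at 2 or more and 0.614% at 0.5 or less. The median log2 ratio was -0.13, and the list summed to 3826 CPM in NegSelected, 3952 in NoSelection and 2674 in PosSelected double-negatives. In the other OT1 cells it summed to 1438 and 1308 CPM.

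Maf, a factor of gamma delta T cells that make IL-17, had 94 UMIs (96.6 CPM) in NegSelected and 246 UMIs (179 CPM) in NoSelection double-negatives, a ratio of 0.54 (0.42 to 0.69), and 152 CPM in PosSelected ones. Sox13, another factor of that lineage, had 244 and 306 CPM, a ratio of 0.80 (0.68 to 0.93). Cpa3 (1.06), Etv5 (0.88), Sox4 (0.95) and Blk (0.85), all abundant in these cells, lay within 1.2-fold of equal, and Ctla2a had a ratio of 1.26 (1.05 to 1.51). Zbtb16, which encodes PLZF, had 1 and 3 UMIs. Il23r and Ccr6, markers of mature IL-17 cells, had none.

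Among lists with at least 3 counted members, cytokine receptors and SOCS proteins had the lowest median. Of 20 genes of the list of cytokine receptors and SOCS proteins 14 were counted, 3 with a ratio above 1 and 11 below, 1 of them past 2-fold. Over all counted genes, 44.9% had a ratio above 1 and 0.614% a ratio of at most 0.5. The median log2 ratio of the list was -0.35. Ifngr1, a chain of the interferon gamma receptor, had 280 and 367 CPM, a ratio of 0.76 (0.65 to 0.89). Il7r had 58.6 and 89.0 CPM, a ratio of 0.66 (0.47 to 0.91), and Il21r 248 and 317 CPM, a ratio of 0.78 (0.66 to 0.92). Socs3, a brake on STAT3 signals, was the member past 2-fold, with 17 UMIs (17.5 CPM) and 55 UMIs (40.1 CPM), a ratio of 0.44 (0.24 to 0.76), spread over 14 and 41 cells with at most 3 in any. Il6ra, a receptor that acts through STAT3, had 5 and 31 UMIs, a ratio of 0.23 (0.07 to 0.59). Cish, a brake on STAT5 signals, went the other way with 26 and 13 UMIs, a ratio of 2.82 (1.40 to 5.97), and Socs1 had a ratio of 1.32 (1.01 to 1.71). The shared chain Il2rg had 512 and 506 CPM, a ratio of 1.01 (0.90 to 1.14).

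Genes of an S100, Ly6 and Ahr pattern differed among themselves. Of 17 genes 14 were counted, 11 with a ratio above 1 and 3 below, against 44.9% of all counted genes above 1. Their median log2 ratio was 0.24. Lgals1, which encodes galectin-1, had 1190 and 790 CPM, a ratio of 1.51 (1.39 to 1.64), and Anxa2 450 and 285 CPM, a ratio of 1.58 (1.37 to 1.81). Vim, the vimentin gene, had 815 and 591 CPM, a ratio of 1.38 (1.25 to 1.52). Ahr, the aryl hydrocarbon receptor gene, had 44 and 25 UMIs (45.2 and 18.2 CPM), a ratio of 2.48 (1.49 to 4.23), in 23 and 21 cells, and 6.47 CPM in PosSelected double-negatives. Against these, Ly6c1 had a ratio of 0.67 (0.48 to 0.93, with alternatives from 0.39 to 0.73) and S100a6 of 0.81 (0.68 to 0.96), and Crip1, the most abundant member at 5507 and 5429 CPM, of 1.01 (0.98 to 1.05).

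Genes of the earliest double-negative stages were low in both mice. Hhex, a progenitor factor gene, had 27 and 13 UMIs, a ratio of 2.93 (1.46 to 6.18) that was 8.87 without cells of the cell cycle list. Kit had 43.2 and 26.98 CPM, a ratio of 1.60 (1.00 to 2.56) with alternatives up to 3.06, and Erg 29 and 28 UMIs, a ratio of 1.46 (0.84 to 2.55). Notch1 had a ratio of 1.24 (0.81 to 1.90). The median log2 ratio over the 5 counted of 14 genes was 0.25. Rag1 had 2 and 1 UMIs, and Cd34 none.

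Preselection and egress genes lay on both sides of equal. Of 10 counted preselection genes 4 had a ratio above 1 and 6 below. Of 14 counted genes of maturation and egress 5 had a ratio above 1 and 9 below. None of either list was past 2-fold. Of all counted genes, 44.9% had a ratio above 1, 0.441% a ratio of at least 2 and 0.614% a ratio of at most 0.5. Ccr9, the receptor that guides cells to the gut and the thymus cortex, had 728 and 936 CPM, a ratio of 0.78 (0.71 to 0.85), and Dntt, which adds bases at receptor joins, 376 and 431 CPM, a ratio of 0.87 (0.76 to 1.00). Cd24a, a surface protein gene of immature thymocytes, had 120 and 93.3 CPM, a ratio of 1.29 (0.99 to 1.67), and 2.40 without cells of the cell cycle list. Ms4a6b had 325 and 256 CPM, a ratio of 1.27 (1.09 to 1.48). Klf2, an egress factor, had 447 and 421 CPM, a ratio of 1.06 (0.94 to 1.21), and its target S1pr1 84.3 and 91.9 CPM, a ratio of 0.92 (0.69 to 1.22). Of the precursors of CD8aa intestinal lymphocytes, Itgae had 110 and 126 CPM, a ratio of 0.87 (0.68 to 1.12), and Itgb7 234 and 242 CPM, a ratio of 0.97 (0.81 to 1.15). Cd160 had 18 and 10 UMIs, a ratio of 2.54 (1.11 to 6.15), and Tbx21 none.

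Among cytotoxic genes, Gzma, which encodes granzyme A, was abundant in both mice at 1226 and 1013 CPM, a ratio of 1.21 (1.12 to 1.31). Cst7, a cystatin gene, was lower at 81.2 and 138 CPM, a ratio of 0.59 (0.45 to 0.77). The chemokine gene Ccl5 had 1 UMI in NegSelected and 36 in NoSelection, all 36 in 1 cell. Tyrobp, a signalling adaptor gene of NK and myeloid cells, had no UMI in NegSelected and 20 in NoSelection, at least 4.73-fold lower against the NegSelected floor of 3 counts (3.08 CPM), with a ratio of at most 0.29 by the exact interval, and 16 of the 20 lay in 1 cell.

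Proximal signalling genes lay close to equal. All 21 listed genes were counted, 9 with a ratio above 1 and 12 below, none past 2-fold. For all counted genes the shares were 44.9% above 1, 0.441% at 2 or more and 0.614% at 0.5 or less. Cd3e had 695 and 747 CPM, a ratio of 0.93 (0.84 to 1.03), and Lck, the kinase bound by coreceptors, 499 and 478 CPM, a ratio of 1.04 (0.93 to 1.17). Zap70, a kinase bound to the activated receptor, had 165 and 214 CPM, a ratio of 0.77 (0.63 to 0.94).

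Lists of MHC class I, death and stress genes held no counted member past 2-fold. Of all counted genes, 0.441% had a ratio of at least 2 and 0.614% a ratio of at most 0.5. MHC class I genes had a median log2 ratio of 0.09 over 14 counted genes, and B2m, read from donor cells, had 967 and 920 CPM, a ratio of 1.05 (0.97 to 1.15). The median was -0.04 over 6 counted p53 targets, 0.08 over 7 members of the Bcl2 family, -0.03 over 17 cell cycle genes and 0.04 over 8 heat shock genes. Bax, a death effector gene, had 117 and 110 CPM, a ratio of 1.06 (0.83 to 1.37), and Mki67, a marker of division, 114 and 93.3 CPM, a ratio of 1.22 (0.94 to 1.59). Bcl2l1, a survival gene, had 20 and 11 UMIs, a ratio of 2.56 (1.17 to 5.92) with alternatives from 1.94 to 6.65. Of 11 counted NF-kB genes, Bcl3 was past 2-fold higher (2.15, 1.20 to 3.92) and Tnfaip3, an inhibitor of the pathway, past 2-fold lower (0.45, 0.26 to 0.77).

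**Figure D4:**
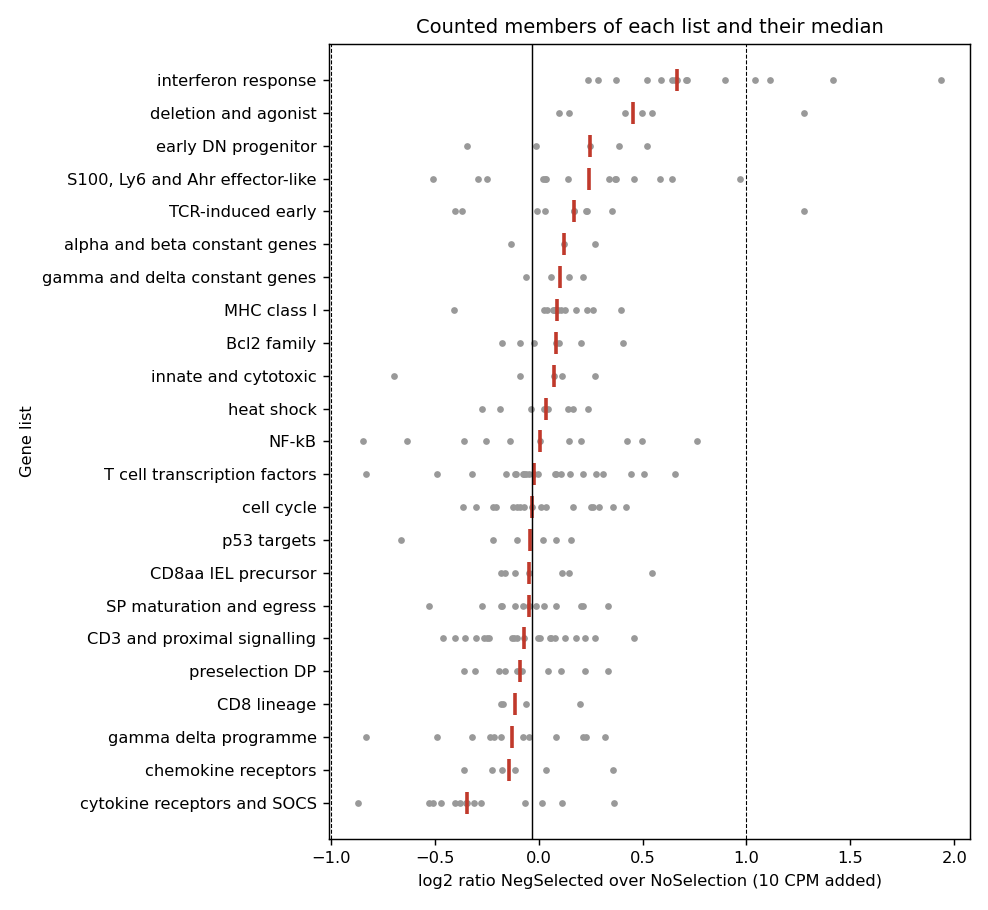
Log2 ratio of NegSelected over NoSelection double-negatives (10 CPM added, x axis) for the counted members (grey points) of each gene list with at least 3 such members (y axis), with the list median as a red bar. The solid line is the median of all counted genes (-0.03) and the dashed lines 2-fold; the interferon response median (0.67) is the highest and that of cytokine receptors and SOCS (-0.35) the lowest.

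On the surface, CD5 was higher in NegSelected double-negatives. Of 110 counted antibodies (at least 200 UMIs, CD4 and CD8A left out), a ratio of at least 1.5 was found for 2, 1.82%, and of at most 1/1.5 for 3, 2.73%. CD5, a receptor that is set by the strength of receptor signals, had a median v of 7.996 in NegSelected, 7.23 in NoSelection and 7.16 in PosSelected double-negatives, with summed counts at a ratio of 1.37 (1.35 to 1.39). In the other OT1 cells its median was 9.13 and 8.33. CD49D, an integrin chain, had medians of 5.36, 4.71 and 4.21 in the same order, a ratio of 1.30 (1.26 to 1.34), and CD45RB had 5.86, 5.30 and 5.86, a ratio of 1.31 (1.28 to 1.35). These 3 were the antibodies whose medians differed by 0.5 or more, and none was lower by as much. The 8 isotype controls with enough counts had medians of at most 2.54.

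KIT, the stem cell factor receptor, had a ratio of 1.77 (1.68 to 1.86) and medians of 3.73 and 3.43, with 3.77 in PosSelected double-negatives. GITR had the highest ratio, 5.12 (4.87 to 5.39), but 5926 of its 6945 NegSelected UMIs lay in 3 cells, and its medians of 2.68 and 2.46 were near the isotype level. Capped at the 99th percentile, its ratio was 1.87. The low ratios of CD11A and CD49F also rested in part on few cells. CD11A had a ratio of 0.56, and 0.68 when capped, with medians of 6.49 and 6.51. Of its 39593 NoSelection UMIs, 12885 lay in 3 cells. CD49F had a ratio of 0.56 with medians of 3.91 and 3.84, and 14428 of its NoSelection UMIs lay in 3 cells. PD-1 had a ratio of 1.09 (1.06 to 1.12), CD69 of 1.09 (1.04 to 1.15), and CD62L, an egress marker, of 0.87 (0.86 to 0.88). The V segment antibodies TCRVB5.1-TCRVB5.2 and TCRVA2 had ratios of 1.04 and 0.81, in cells that had been sorted as Va2+ Vb5+.

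**Figure D5:**
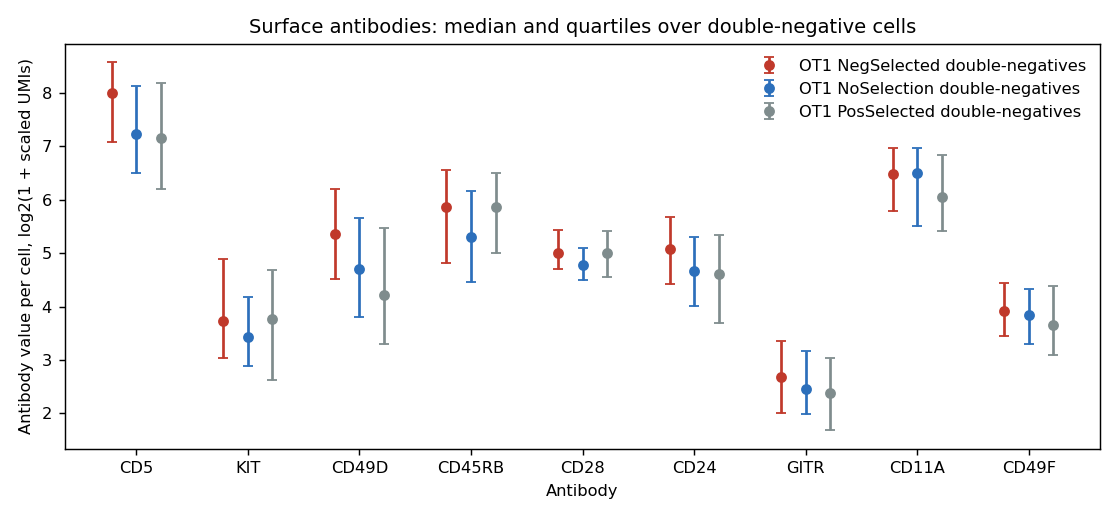
Antibody value v per cell (y axis, log2 of 1 + scaled UMIs) for 9 antibodies (x axis) in double-negatives of the OT1 NegSelected (red), NoSelection (blue) and PosSelected (grey) mouse; points are medians and bars run from the lower to the upper quartile. CD5, CD49D and CD45RB are the 3 with red medians at least 0.5 above blue, and the GITR and CD11A medians lie close together.

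The double-negatives were not uniform. Grouped by their RNA without receptor and cell cycle genes, the OT1 double-negatives of the 3 mice fell into 5 clusters. Cluster 0 (40 NegSelected and 69 NoSelection cells) had Gm2682, Ifit1, Ifit3, Slfn5 and Isg15 among its leading genes. Ccl5 was another, but its 36 NoSelection UMIs all lay in 1 cell and the NegSelected cells had 1 UMI. Cluster 1 (53 and 57 cells) was led by Olfm5, Alox5ap, Ctla2a and Cpa3, and cluster 2 (28 and 77 cells) by Maf, Ifitm10, Ccr8 and Sox13. Clusters 3 (led by H1f5, Mki67 and Top2a) and 4 (led by Itm2a, Satb1 and Cd2) held under 20 cells of a mouse and were not compared. Genes that lead a cluster are no result within it, and the clusters' sizes are not compared because their leading genes differ between the mice.

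Helios RNA and surface CD5 had higher values in NegSelected cells of each of the 3 clusters, though the Helios interval held 1 in cluster 1. The ratio of Ikzf2 was 1.74 (1.42 to 2.14) in cluster 0, 1.19 (0.96 to 1.48) in cluster 1 and 1.503 (1.05 to 2.13) in cluster 2. The median v of CD5 was higher in NegSelected cells by 0.61, 0.42 and 0.40. CD49D medians were higher by 0.17, 0.15 and 0.30, less than over all double-negatives, and CD45RB medians by 0.70 and 0.17 in clusters 0 and 1 and lower in cluster 2, at 4.46 against 4.61. Outside cluster 0, which interferon genes lead, the summed interferon list had a ratio of 1.37 (1.16 to 1.62) in cluster 1 and 1.41 (1.10 to 1.78) in cluster 2. The deletion and agonist list had 1.12 (0.95 to 1.32) in cluster 1 and 1.12 (0.87 to 1.42) in cluster 2. In cluster 0 it had 2.36 (2.04 to 2.74), but its member Nr4a1 is among the genes that lead that cluster. Cluster 0 also held all 20 NegSelected UMIs of Cd83, 16 of them in 1 cell. Of the 25 NegSelected UMIs of Gadd45b, found in 5 cells, it held 24. No contrast between the clusters is drawn for this list.

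Lower genes behaved less alike. Fkbp5 was lower in all 3 clusters, with ratios of 0.40 (0.26 to 0.60), 0.70 (0.50 to 0.95) and 0.61 (0.37 to 0.98). Cst7 had 0.49 (0.29 to 0.80) and 0.47 (0.29 to 0.75) in clusters 0 and 1 and 1.03 (0.58 to 1.78) in cluster 2. Maf had 1 and 29 UMIs in cluster 0 and a ratio of 1.31 (0.76 to 2.26) in cluster 1. The summed gamma delta programme had ratios of 0.94, 0.97 and 1.02, and the S100, Ly6 and Ahr list 1.10, 0.99 and 0.96. Anxa2 had 1.42 (0.97 to 2.08), 1.495 (1.23 to 1.83) and 0.61 (0.26 to 1.30).

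The OT2 double-negatives, which carry a receptor for an MHC class II peptide, were too few for more than a side view, with 31 NegSelected and 51 NoSelection cells. The NegSelected host was again RIPmOVA, and the labels of the NoSelection host conflict between an MHC class II knockout and a B2m knockout. Ifi27l2a stood at 113 CPM in NegSelected and 8.25 in NoSelection cells, a ratio of 13.7 (4.02 to 72.0), above 1 as in OT1. Isg15, at 17.8 and 41.3 CPM, had a ratio of 0.43 (0.08 to 1.52), and Mcub of 0.72 (0.20 to 2.08). The OT2 PosSelected cells, 23 in number and from a wild type host, stood highest in the interferon list. They had 2084 CPM, against 931 in NegSelected and 655 in NoSelection ones.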

How the data were processed

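RNA and antibody counts (UMIs per cell) from 6 mice, 3 libraries each, were deposited by the authors as whole-number matrices; Cell Ranger 8.0.1, Seurat and mm10 are named per the submitters' processing notes. How hashtags were assigned and cells filtered is not given in the sources used here, and receptor sequence libraries were left out. Cells were given to mice by the deposited hashtag number. No doublet caller was run.

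UMIs of double-negatives were summed per mouse and given as CPM with exact Poisson intervals, and ratios with exact conditional binomial intervals, all at 95%. Genes with 50 UMIs over both mice, and antibodies with 200, were counted. A count of 0 was set to a floor of 3 counts (3.08 CPM in NegSelected, 2.19 in NoSelection). List medians use log2 of CPM + 10. Double-negatives were clustered with Leiden at resolution 0.6. The intervals were checked on simulated Poisson sums, the model that they assume. That check cannot show how they hold for genes whose UMIs lie in few cells. Alternatives were other scalings, caps, cell filters, thresholds and minimums.

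Genes were named by rule: up to 12 on each side by ratio whose interval excluded 1.5-fold (13 higher and 4 lower passed; 2-fold left fewer than 6), 29 anchor genes, and of each list the most abundant member and the 3 with the largest ratios among those with 20 UMIs. Other genes and antibodies named from the lists, such as Lgals1, Vim, CD5, CD49D and CD45RB, were chosen after their values were seen. The cells, the 32 lists and the rule were chosen with earlier results of these data known. A few list members that the rule names are not reported here, though list counts, medians and sums include them.

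Tools were Python 3.11.15 with numpy 2.4.6, scipy 1.17.1, pandas 2.3.3, scanpy 1.11.5, leidenalg 0.10.2 and matplotlib 3.10.9, and edgeR 4.0.16 in R 4.3.3, used for TMM scaling of the counts in 1 alternative.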

Additional observations from a re-analysis of the deposited data

Results flagged for a closer look

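For 7 named genes, the OT1 and OT2 double-negatives had ratios of NegSelected to NoSelection on opposite sides of equal. Each counting interval excluded 1. Only the named genes reported here were searched. The share over all counted genes was not worked out, so the count of 7 is a list and gives no rate. The difference between the receptors was not tested, and the OT2 values rest on 31 and 51 cells of 1 mouse each. Of genes higher in OT1, H2bc11 had a ratio of 2.88 in OT1 and no UMI in OT2 NegSelected cells, Anxa2 had 1.58 and 0.53, Gzma 1.21 and 0.49, and Id3, an inhibitor of E proteins, 1.16 and 0.71. Of genes lower in OT1, Arpp21, a gene of double-positive thymocytes, had 0.80 in OT1 and 1.55 in OT2. The nuclear RNA Malat1 had 0.88 and 1.53, and the mitochondrial gene mt-Cytb 0.89 and 1.47. The last pair come from the list for dying cells. Another gene of that list, mt-Nd1, had 1.06 (0.89 to 1.25) in OT1 and 0.83 (0.59 to 1.17) in OT2. A part of RNA quality in these values was not tested.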

How the results depend on the processing

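With 1 mouse per host there was no replicate to leave out. No paired analysis was possible because the result comes from no test and each group held 1 mouse. The number of genes at least 2-fold higher, 28, was 54 with the mean of per-cell CPM, 45 without cells with a UMI of Cd4, Cd8a or Cd8b1, 116 at a minimum of 20 UMIs and 5 at 100. The number at least 2-fold lower, 39, was 62 with the mean of per-cell CPM, 25 without cells of the cell cycle list, 205 at 20 UMIs and 3 at 100. The interferon median of 0.67 was 0.46 with counts capped at the 99th percentile, 0.50 with 50 CPM added and 0.37 without the 5 top cells of each mouse. The S100, Ly6 and Ahr median of 0.24 was 0.10 when capped. The 3 lower antibodies became 0 when capped and 0 by the median of v. At Leiden resolution 1.0, Maf was below 1 in 1 cluster. Without cells over the 95th percentile of RNA UMIs the ratio was 0.54 for H2bc11, 0.92 for H2bc18 and 2.24 for Gm20628; without cells of the cell cycle list it was 0.42 for H2bc11 and 0.95 for H2bc18. Gm20628 was 1.09 when capped and 2.50 without cells with coreceptor UMIs, and CD49F was 1.01 when capped and 1.05 by the median of v. The causes were not tested. Alternatives that left 0 counts gave no value.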
